A study of Mus musculus with 6 samples.

Results

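The genes described here are 48 genes of mitosis and the spindle, among them the Aurora and Polo-like kinases, the spindle checkpoint, the kinetochore, the mitotic kinesins and the condensins. They were chosen by name, and each was read from the brightest probe set that carries its symbol alone. Of the 48, 47 were measured, out of 18710 genes measured in all. The cyclin gene Ccnb1 had no such probe set and was not analysed here. Sgo1 was listed under its older symbol Sgol1. The samples were spleens of mouse embryos at E13.5, with 3 arrays for embryos heterozygous for Tlx1 and 3 for homozygous embryos, and the question in the series title is how TLX1 acts on retinoic acid signalling in spleen development. The labels give the zygosity and do not describe the allele. Read as zygosity for an altered Tlx1 allele, both groups carry it, and the comparison has no wild-type group. Whether a replicate was a single embryo or a pool is not given in the labels, so p-values reflect only how much these samples differ from one another, and part of that may be technical.

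Most mitotic genes are transcribed late in the cell cycle, and their products drive chromosome condensation, spindle assembly, chromosome segregation and the final cut between daughter cells. Their transcripts are widely used as a measure of how many cells of a tissue are dividing. Many of their promoters carry CCAAT boxes, which bind NF-Y, and a cell cycle homology region (CHR), which recruits the DREAM and MYB-MuvB complexes. In the mid-gestation embryo the spleen grows as a mesenchymal bud beside the stomach and pancreas, and dividing cells are found in its mesenchyme, its vessels and its blood cells.

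All values are intensities on a linear scale, 1 per gene and array, with array medians of 106 to 110. Tlx1 read 706 to 825 on the heterozygous and 171 to 209 on the homozygous arrays, and where its probe set lies relative to the altered part of the gene was not known here. Of the other spleen mesenchyme markers, Nkx2-5 was 60.5% and Nkx3-2 57.4% lower in homozygous spleens, and Wt1 20.4% and Tcf21 16.4% lower. Barx1 went the other way, with 1136 to 1347 on the heterozygous and 1397 to 1582 on the homozygous arrays, but did not pass. Pearson correlations of log2 values between arrays, over genes, were 0.995 to 0.997 for arrays of one genotype and 0.989 to 0.993 for arrays of different genotypes. The Y-linked gene Eif2s3y was brighter on heterozygous arrays 1 and 3 (600.0 and 735) than on the other 4 arrays (391 to 417), as was Kdm5d (348 and 377 against 206 to 228). The X-linked gene Xist was dimmer on the same 2 arrays (901 and 812) than on the other 4 (1478 to 1857). The sex of the samples was not known here, but by these levels the Y-linked signal was not balanced between the groups.

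Mitotic genes were lower in homozygous spleens, by small amounts. Of the 47 measured members, 22 fell and 0 rose at an adjusted p below 0.05 in limma, with Benjamini-Hochberg adjustment over all 18710 genes. Of all genes 17.0% were called, 6.56% lower and 10.4% higher. All 47 estimates lay below 0, against 46.4% of all genes, and the median log2 fold change was −0.25, against 0.02 for all genes. At an unadjusted p below 0.05, 36 members were lower and 0 higher, and 13.4% of all genes were lower. The 22 members that fell were 12.6% to 27.0% lower in mean intensity, with a median of 18.9%, and no member changed as much as 2-fold.

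The groups did not overlap for 36 of the 47 members, with every homozygous value below every heterozygous value, and 17.2% of all genes showed that order (38.3% were without overlap in either direction). Members gave fairly bright signals, with means over the 6 arrays of 294 to 2673. Among the 6811 genes with a mean in that range, a background chosen after the values were seen, 8.75% were called lower, 4.14% were called higher, 27.4% had no overlap with homozygous values lower, 68.4% had an estimate below 0 and the median was −0.05. In bulk tissue, fewer dividing cells and less of these transcripts per dividing cell cannot be told apart.

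**Figure D1:**
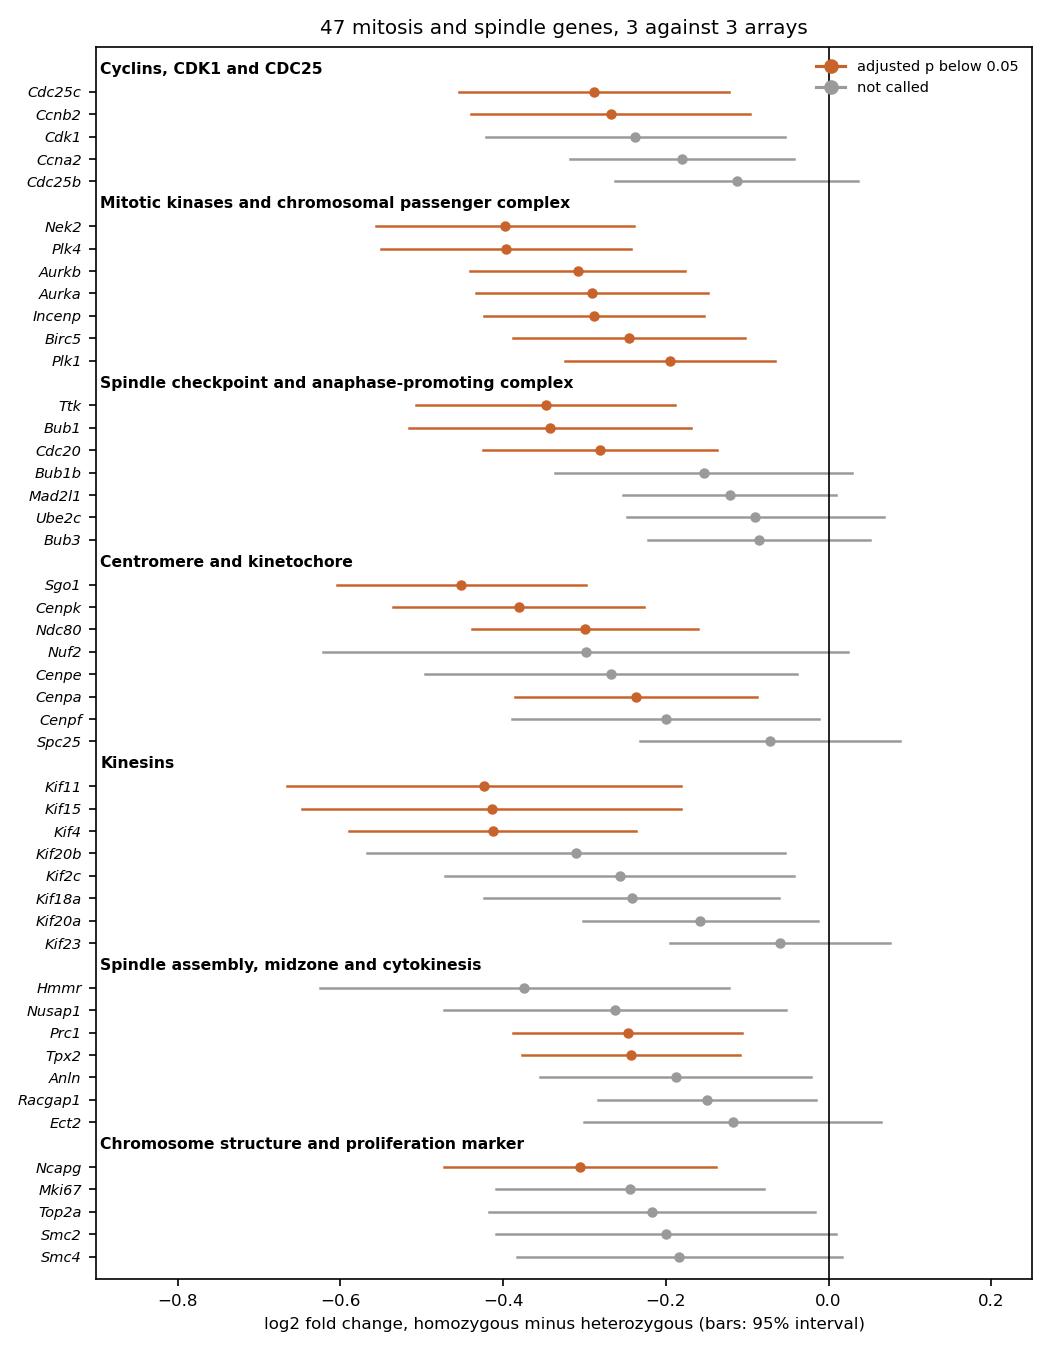
Log2 fold change of the 47 measured mitosis and spindle genes, homozygous minus heterozygous (horizontal axis), with 95% intervals from the limma fit, grouped by role; orange marks an adjusted p below 0.05. Every point lies left of 0, and all 7 genes of the kinase and passenger group are orange.

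The promoters of these genes were searched for the CHR and CCAAT motifs. RefSeq promoter windows of build GRCm38.p6, each from 250 bases before to 50 bases after an annotated transcript start, were matched for 40 of the 47 members and gave 45 windows. Aurkb, Ccna2, Cdc25c, Incenp, Kif20a, Smc4 and Tpx2 had none. The CHR was searched as TTTGAA or TTCGAA and the NF-Y box as CCAAT, each on both strands, and matches may overlap. A CHR match was found in 34 of the 45 member windows (75.6%), against 19.2% of all 32851 windows and 15.5% of the 18194 windows of genes tested. A CCAAT match was found in 75.6% of member windows and 37.4% of all, and both motifs in 64.4% and 7.52%. Within 50 bases of the start, 68.9% of member windows and 5.31% of all windows held a CHR match.

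Members with and without a match had similar medians. The median log2 fold change was −0.24 for the 31 members with a CHR match, 14 of them called, and −0.27 for the 9 without, 4 of them called. For CCAAT the medians were −0.24 with a match (29 members, 14 called) and −0.26 without (11 members, 4 called). For both motifs together they were −0.24 (26 members, 12 called) and −0.28 for the members without both (14 members, 6 called). These differences were not tested. Of the 99 windows of other mitosis genes, described later, 43.4% held a CHR match, 57.6% a CCAAT match and 28.3% both. Of the G1/S and replication genes, 8 of 43 windows (18.6%) held a CHR match and 62.8% a CCAAT match. A match describes the letters only, and binding was not measured.

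The promoters shown here let the motif layout of members that fell be set beside that of members that did not pass. They come from the 9 members with a single window, both motifs before the start and no other annotated gene there, and are those of the 3 called members with the largest fall and of the 2 members with the largest p. Each run is the 250 bases before the start, 5′ to 3′ in the direction of transcription, with the CCAAT and CHR letters in capitals wherever they lie on either strand:
Kif11, GRCm38.p6, chr19:37376132-37376381, plus strand: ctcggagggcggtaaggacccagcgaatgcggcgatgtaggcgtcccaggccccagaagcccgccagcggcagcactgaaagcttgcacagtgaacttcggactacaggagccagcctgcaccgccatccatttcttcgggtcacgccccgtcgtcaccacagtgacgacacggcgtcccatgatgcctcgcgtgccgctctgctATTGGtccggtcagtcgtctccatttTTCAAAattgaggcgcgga
Cdc20, GRCm38.p6, chr4:118437344-118437593, minus strand: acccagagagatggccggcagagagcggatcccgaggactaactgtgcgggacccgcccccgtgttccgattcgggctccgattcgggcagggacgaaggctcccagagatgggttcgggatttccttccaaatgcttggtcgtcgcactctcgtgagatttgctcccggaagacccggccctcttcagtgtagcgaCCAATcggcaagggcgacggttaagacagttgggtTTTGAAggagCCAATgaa
Ccnb2, GRCm38.p6, chr9:70421555-70421804, minus strand: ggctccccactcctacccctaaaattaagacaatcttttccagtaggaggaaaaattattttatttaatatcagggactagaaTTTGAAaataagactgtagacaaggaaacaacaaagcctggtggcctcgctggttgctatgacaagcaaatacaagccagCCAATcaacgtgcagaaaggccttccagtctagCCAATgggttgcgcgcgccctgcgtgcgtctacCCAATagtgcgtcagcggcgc
Bub1b, GRCm38.p6, chr2:118597961-118598210, plus strand: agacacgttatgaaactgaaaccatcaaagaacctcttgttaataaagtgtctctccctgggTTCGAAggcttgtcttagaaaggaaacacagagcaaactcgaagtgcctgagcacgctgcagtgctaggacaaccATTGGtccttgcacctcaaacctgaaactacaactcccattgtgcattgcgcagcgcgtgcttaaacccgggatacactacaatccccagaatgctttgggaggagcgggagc
Ube2c, GRCm38.p6, chr2:164769679-164769928, plus strand: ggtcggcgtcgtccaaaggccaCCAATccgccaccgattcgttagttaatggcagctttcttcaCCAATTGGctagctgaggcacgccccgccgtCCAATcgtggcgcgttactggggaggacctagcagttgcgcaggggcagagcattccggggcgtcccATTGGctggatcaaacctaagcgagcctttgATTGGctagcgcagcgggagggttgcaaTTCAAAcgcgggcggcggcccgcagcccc

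In Kif11 a CCAAT match at −45 to −41 precedes a CHR match at −19 to −14, counted back from the base before the start as −1. Cdc20 has the same order, with CCAAT at −53 to −49, the CHR at −18 to −13 and a further CCAAT at −8 to −4. Ccnb2 holds 3 CCAAT matches, from −87, −54 and −21, and a second CHR at 4 to 9 bases past the start, outside the printed run (the first base of the transcript is 0). In Ube2c 6 CCAAT matches precede the CHR at −29 to −24, of which 2 overlap. The printed CHR of Ccnb2 lies farther out, from −167, and that of Bub1b from −188, and Bub1b too has a second CHR past the start, at 40 to 45. Kif11, Cdc20 and Ccnb2 fell, while Ube2c and Bub1b did not pass. All of them hold both motifs because the choice required it, so they cannot show whether the motifs go with a fall.

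Among the cyclins, Cdk1 and the CDC25 phosphatases, which together start mitosis, 2 of 5 measured members fell. The B-type cyclin gene Ccnb2 read 2372, 2339.9 and 2218 on the heterozygous arrays and 1789, 1878 and 2101 on the homozygous arrays (log2 fold change −0.27 ± 0.08 (SE), adjusted p = 0.0436). Cdc25c, a phosphatase that activates Cdk1, read 326, 310.0 and 333 on the heterozygous arrays and 249, 288 and 257 on the homozygous arrays (log2 fold change −0.29 ± 0.07 (SE), adjusted p = 0.0308). The groups did not overlap for either gene. Homozygous replicate 3 was the highest of its group for Ccnb2 and replicate 2 for Cdc25c. Both calls were lost in 5 of the 6 refits without 1 array, held for Ccnb2 without homozygous replicate 3 and for Cdc25c without homozygous replicate 2, and both were lost after quantile normalization and after cyclic loess.

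Cdk1 itself, the kinase of mitotic entry, read 1183, 1093 and 1173 on the heterozygous arrays and 884, 983 and 1065 on the homozygous arrays and stayed short of the threshold (log2 fold change −0.24 ± 0.08 (SE), adjusted p = 0.0755). Ccna2, the cyclin of S phase and mitotic entry, was at −0.18 (adjusted p = 0.0735), also without overlap. Cdc25b, the sister phosphatase of Cdc25c, had the largest p of this group and read 499, 494 and 453 on the heterozygous arrays and 449, 430.0 and 457 on the homozygous arrays. Its groups overlapped, and the 95% interval of its log2 fold change was −0.26 to 0.04.

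The mitotic kinases and the chromosomal passenger complex were the role in which all measured members fell, 7 of 7, without overlap between groups. Nek2, a kinase that separates the centrosomes, read 469.7, 463 and 479 on the heterozygous arrays and 349.9, 387 and 336 on the homozygous arrays (log2 fold change −0.40 ± 0.07 (SE), adjusted p = 0.0086). Plk4, which starts centriole duplication, read 587, 658 and 629.9 on the heterozygous arrays and 459.7, 493 and 469.6 on the homozygous arrays (log2 fold change −0.40 ± 0.07 (SE), adjusted p = 0.00772). These values were 24.0% and 24.1% lower on average in homozygous spleens. Both kept their call in all 6 refits without 1 array.

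The passenger complex corrects faulty attachments of microtubules to chromosomes. Its kinase gene Aurkb read 1447, 1381 and 1371 on the heterozygous arrays and 1140.2, 1122 and 1127 on the homozygous arrays (log2 fold change −0.31 ± 0.06 (SE), adjusted p = 0.0113), with hardly any spread among the homozygous values. Incenp, the scaffold of the complex, fell from 674 ± 6.4 in heterozygous to 552 ± 20.2 in homozygous spleens (SD, n = 3) (log2 fold change −0.29 ± 0.06 (SE), adjusted p = 0.0153). Birc5, which carries the complex to the centromere, fell from 529 ± 12.5 in heterozygous to 446 ± 20.9 in homozygous spleens (SD, n = 3) (log2 fold change −0.25 ± 0.06 (SE), adjusted p = 0.0319). Aurkb kept its call without any 1 array, Incenp lost it without heterozygous replicate 2 or homozygous replicate 1, and Birc5 kept it only without homozygous replicate 3. After quantile normalization or cyclic loess, Birc5 and Plk1 lost their calls, which leaves 5 of the 7 in this role under cyclic loess.

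Aurka, the Aurora kinase of the centrosome and spindle, fell from 1107 ± 25.8 in heterozygous to 905 ± 41.0 in homozygous spleens (SD, n = 3) (log2 fold change −0.29 ± 0.06 (SE), adjusted p = 0.0182). Its call was lost on leaving out heterozygous replicate 1, heterozygous replicate 2 or homozygous replicate 1. Plk1, the Polo-like kinase of mitotic entry and exit, had the largest p of the 7 and read 1289, 1293 and 1300.2 on the heterozygous arrays and 1154, 1131 and 1106 on the homozygous arrays (log2 fold change −0.20 ± 0.06 (SE), adjusted p = 0.0481). The heterozygous values of Plk1 were nearly flat, and its call was lost in every refit without 1 array.

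Genes of the spindle checkpoint, which delays anaphase until all chromosomes are attached, moved unevenly, and 3 of 7 members of this role fell. Ttk, the kinase that starts the checkpoint signal, read 587, 573 and 582 on the heterozygous arrays and 423, 490.1 and 457 on the homozygous arrays (log2 fold change −0.35 ± 0.07 (SE), adjusted p = 0.0144). Bub1, a checkpoint kinase at the kinetochore, read 1258, 1294 and 1357 on the heterozygous arrays and 998, 1128 and 961 on the homozygous arrays (log2 fold change −0.34 ± 0.08 (SE), adjusted p = 0.0201). Cdc20, the activator of the anaphase-promoting complex that the checkpoint holds back, read 525, 490.5 and 500.0 on the heterozygous arrays and 417, 399 and 432 on the homozygous arrays (log2 fold change −0.28 ± 0.06 (SE), adjusted p = 0.0212). No homozygous value of these 3 genes reached a heterozygous one. Ttk lost its call without homozygous replicate 1, and Bub1 lost it when heterozygous replicate 2, heterozygous replicate 3, homozygous replicate 1 or homozygous replicate 3 was left out. Cdc20 lost it when heterozygous replicate 1, heterozygous replicate 2 or homozygous replicate 1 was left out, and after quantile normalization or cyclic loess.

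Bub1b, Mad2l1 and Bub3, which with Cdc20 form the mitotic checkpoint complex, did not pass, while Cdc20 did. Bub1b was at −0.15 (adjusted p = 0.212), Mad2l1 at −0.12 (adjusted p = 0.174) and Bub3 at −0.09 (adjusted p = 0.348). Bub3 read 2739.9, 2758 and 2758 on the heterozygous arrays and 2609, 2487 and 2687 on the homozygous arrays, without overlap, and its 95% interval was −0.22 to 0.05. Ube2c, the ubiquitin-conjugating enzyme of the anaphase-promoting complex, read 685, 679 and 659 on the heterozygous arrays and 600.1, 617 and 686 on the homozygous arrays, and homozygous replicate 3 was the highest of the 6 arrays. Its 95% interval was −0.25 to 0.07.

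Among genes of the centromere and kinetochore, the platform that joins chromosomes to microtubules, 4 of 8 fell. Sgo1, which protects centromeric cohesion until anaphase, had the largest fall of all members and read 463, 516 and 464 on the heterozygous arrays and 343, 362 and 348 on the homozygous arrays (log2 fold change −0.45 ± 0.07 (SE), adjusted p = 0.00452), 27.0% lower in the mean. Cenpk, of the constitutive centromere network, read 412, 407 and 412 on the heterozygous arrays and 291, 332 and 321 on the homozygous arrays (log2 fold change −0.38 ± 0.07 (SE), adjusted p = 0.00929). The heterozygous values of Cenpk were nearly equal, and both genes kept their call without any 1 array. Cenpa, the histone H3 variant that marks centromeres, fell from 1243 ± 52.1 in heterozygous to 1055 ± 46.0 in homozygous spleens (SD, n = 3) (log2 fold change −0.24 ± 0.07 (SE), adjusted p = 0.0408), and lost its call in every refit without 1 array and after quantile normalization or cyclic loess.

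The microtubule-binding Ndc80 complex was represented by 3 members. Ndc80 read 556, 517 and 526 on the heterozygous arrays and 445, 428 and 425 on the homozygous arrays (log2 fold change −0.30 ± 0.06 (SE), adjusted p = 0.0151) and lost its call, among the refits without 1 array, on leaving out heterozygous replicate 1 only. Its partner Nuf2 had the same estimate, −0.30, but read 1229, 1186 and 1342 on the heterozygous arrays and 1093, 1212 and 793 on the homozygous arrays, with homozygous replicate 3 far below replicate 2, and did not pass (adjusted p = 0.174). Spc25, another subunit, read 732, 822 and 730.1 on the heterozygous arrays and 697, 727 and 746 on the homozygous arrays, and its groups overlapped. The 95% interval for Spc25, −0.23 to 0.09, overlapped that of Ndc80, −0.44 to −0.16, and the difference between the subunits was not tested. The kinetochore motor Cenpe (−0.27, adjusted p = 0.0995) and Cenpf (−0.20, adjusted p = 0.128) did not pass and had no overlap.

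**Figure D2:**
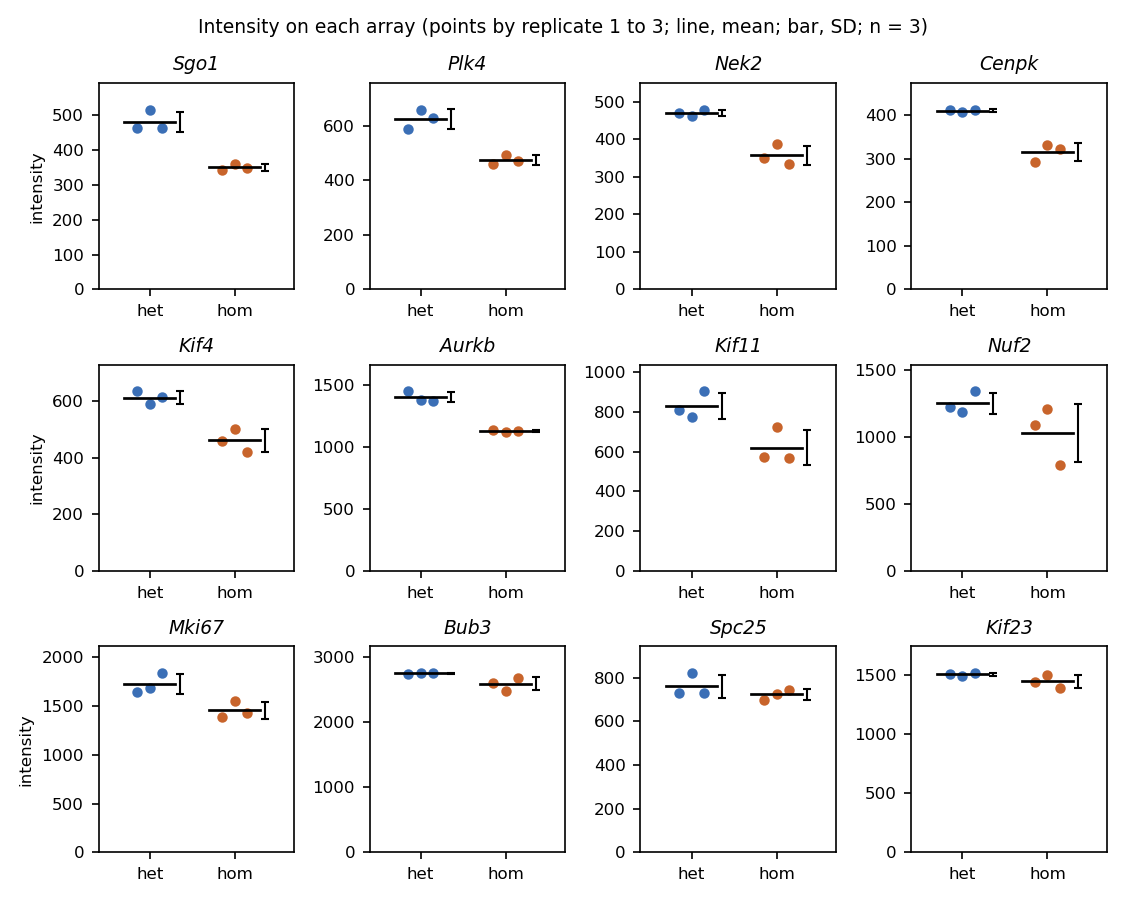
Intensity (vertical axes, linear, from 0) on each array for 12 of the genes, heterozygous in blue and homozygous in orange, with points ordered by replicate 1 to 3, the mean as a line and the SD as a bar (n = 3). Sgo1, Plk4, Nek2, Cenpk, Kif4 and Aurkb are separated by more than the spread within groups, while the groups of Nuf2, Spc25 and Kif23 overlap.

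Of the 8 kinesins, motors that slide, align or take apart spindle microtubules, 3 fell. Kif11, which pushes the spindle poles apart, read 809.8, 774 and 903 on the heterozygous arrays and 572, 723 and 566 on the homozygous arrays (log2 fold change −0.42 ± 0.11 (SE), adjusted p = 0.0298). Kif15, which helps to keep them apart, read 915, 876 and 1012 on the heterozygous arrays and 704, 796 and 611 on the homozygous arrays (log2 fold change −0.41 ± 0.10 (SE), adjusted p = 0.0282). Kif4, a motor on chromosome arms and the midzone, read 634, 589 and 615 on the heterozygous arrays and 459, 502 and 421 on the homozygous arrays (log2 fold change −0.41 ± 0.08 (SE), adjusted p = 0.0111). The groups of all 3 were apart, and homozygous replicate 2 was the highest of its group each time. Kif4 kept its call without any 1 array, whereas Kif11 and Kif15 kept theirs only without homozygous replicate 2.

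Kif23, the motor of centralspindlin, read 1506, 1485 and 1513 on the heterozygous arrays and 1437, 1497 and 1389.5 on the homozygous arrays, an overlap of groups with a 95% interval of −0.20 to 0.08, and had the largest p of all members. Kif20a, which carries the passenger complex to the midzone, was at −0.16 (adjusted p = 0.119). Kif20b, Kif2c and Kif18a lay at −0.31, −0.26 and −0.24, with adjusted p-values of 0.0913, 0.0938 and 0.0696. Kif2c takes microtubule ends apart at the centromere and Kif18a limits chromosome movements at the spindle equator.

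Among genes of spindle assembly, the midzone and cytokinesis, 2 of 7 fell. Prc1, which bundles microtubules between the separating chromosomes, read 771, 805 and 767 on the heterozygous arrays and 655, 686 and 633 on the homozygous arrays (log2 fold change −0.25 ± 0.06 (SE), adjusted p = 0.0298). Tpx2, which activates Aurora A on the spindle, read 1575, 1618 and 1621 on the heterozygous arrays and 1357, 1396 and 1316 on the homozygous arrays (log2 fold change −0.24 ± 0.06 (SE), adjusted p = 0.0267). Neither had an overlap between groups, and both kept their call in only 1 of the 6 refits without 1 array, that without homozygous replicate 2. Prc1 also lost it after quantile normalization or cyclic loess.

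Hmmr, a spindle pole protein, had a larger estimate than either, −0.37, and a wider spread, and it stayed just short of the threshold (adjusted p = 0.05001). Nusap1, which stabilises microtubules near chromosomes, was at −0.26 (adjusted p = 0.0838). Anln, Racgap1 and Ect2, of the contractile ring and its control, did not pass. The scaffold Anln was at −0.19 and the centralspindlin subunit Racgap1 at −0.15, while Ect2, the exchange factor that activates RhoA, read 1017, 971 and 1044 on the heterozygous arrays and 903, 1036 and 862 on the homozygous arrays. The groups of Ect2 overlapped, with a 95% interval of −0.30 to 0.06.

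In the group of chromosome structure, 1 of 5 fell, Ncapg, a subunit of condensin I. It read 915, 913 and 947 on the heterozygous arrays and 743, 815 and 692 on the homozygous arrays (log2 fold change −0.31 ± 0.07 (SE), adjusted p = 0.0259) and kept its call only without homozygous replicate 2. The core condensin ATPases Smc2 and Smc4 were at −0.20 and −0.18 (adjusted p = 0.163 and 0.178), and Smc4 read 1209.8, 1237 and 1363 on the heterozygous arrays and 1141, 1221 and 999 on the homozygous arrays, with overlap. Mki67, the coat protein of mitotic chromosomes that is used as a proliferation marker, read 1637, 1682 and 1835 on the heterozygous arrays and 1386, 1544 and 1422 on the homozygous arrays. Its groups did not overlap and it lay close to the threshold (log2 fold change −0.24 ± 0.07 (SE), adjusted p = 0.051), and it passed under 6 of the 13 settings that kept all arrays. Top2a, the topoisomerase that untangles sister chromatids, was at −0.22 (adjusted p = 0.121) with overlapping groups.

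Array by array, every heterozygous array lay above and every homozygous array below the members' own means in the median. The median deviation of the 47 members from their own means was 0.11, 0.10 and 0.16 on the log2 scale on heterozygous arrays 1 to 3, and −0.14, −0.04 and −0.17 on homozygous arrays 1 to 3. Homozygous replicate 2 was the nearest to the heterozygous arrays and was the highest of its group for 33 of 47 members. Heterozygous replicate 3 was the highest of all 6 arrays for 26 members. Homozygous replicate 3 was the lowest of all for 22 members and replicate 1 for 19. The summed intensity of the members was 49714, 49841 and 51392 on the heterozygous and 42421, 45044 and 41964 on the homozygous arrays.

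**Figure D3:**
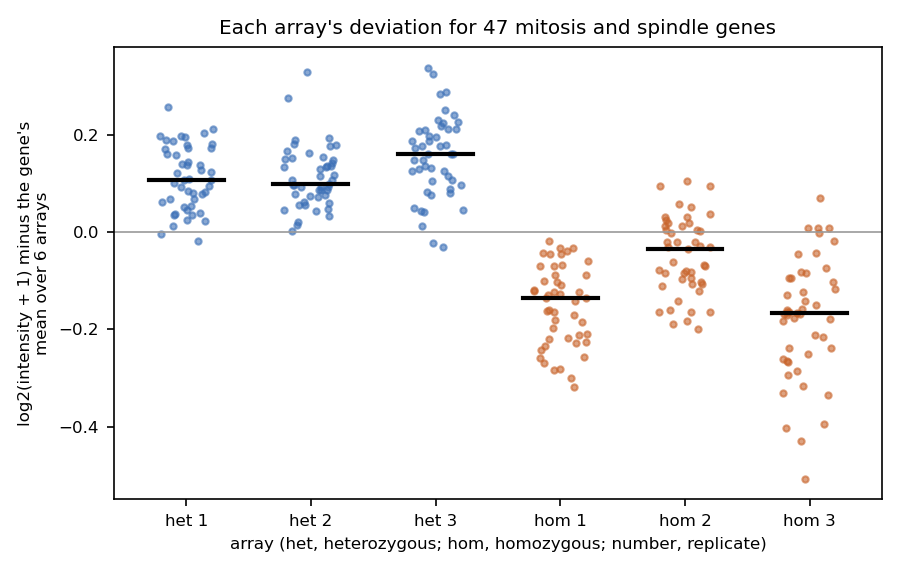
Deviation of each of the 47 genes from its own mean over the 6 arrays (vertical axis, log2 of intensity + 1), by array (horizontal axis), with the median as a black line. The medians of the 3 heterozygous arrays lie at 0.10 to 0.16 and those of the homozygous arrays at −0.17 to −0.04, with homozygous replicate 2 nearest to 0.

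The count of calls depended on single arrays. Without heterozygous replicate 1, 2 or 3 it was 9, 8 or 11 members, without homozygous replicate 1 or 3 it was 7 or 13, and without homozygous replicate 2 it was 25, all lower. These refits have fewer samples, and calls over all genes moved with them, from 499 to 1244 lower against 1227 with all arrays. With the mean log2 level of Eif2s3y and Kdm5d as a covariate in limma, 2 members were called, Sgo1 (adjusted p = 0.0151) and Plk4 (adjusted p = 0.0291), and the median of all members was −0.21. That covariate is highest on heterozygous arrays 1 and 3 and so overlaps with genotype. In each of the 19 alternatives all 47 estimates stayed below 0 and 0 members were called higher, and the medians ranged from −0.29 to −0.21.

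**Figure D4:**
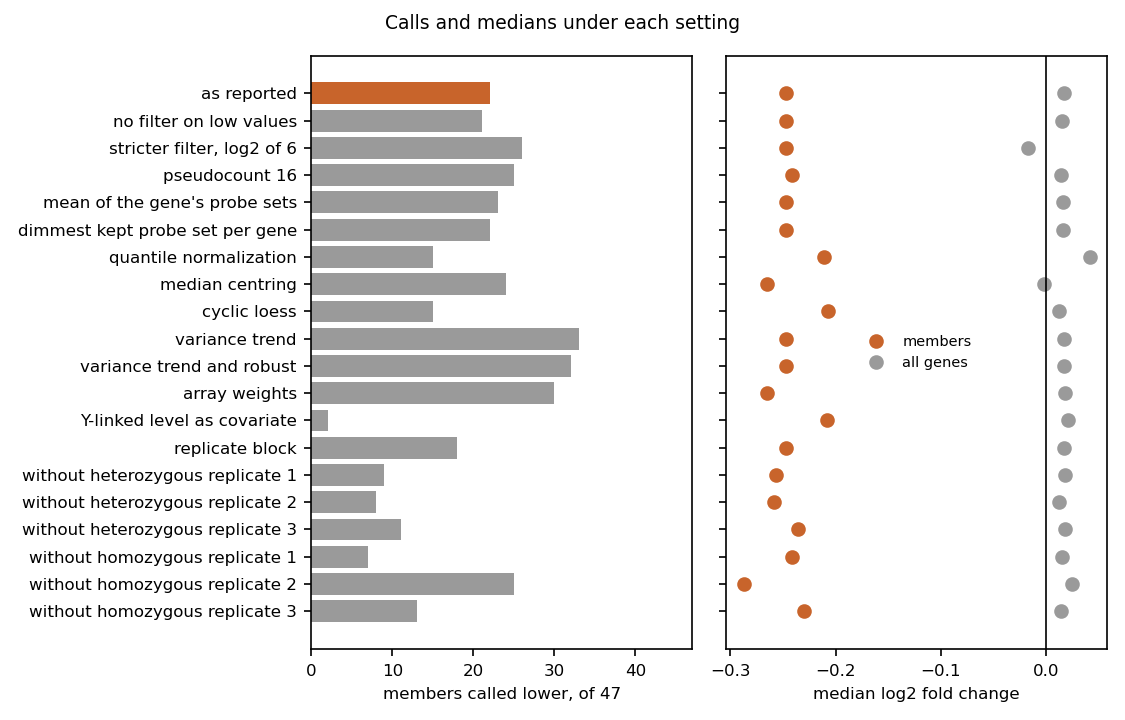
Number of members called lower, of 47 (left), and median log2 fold change of members and of all genes tested (right), as reported and under 19 alternatives. The count runs from 2 to 33, while the members' median stays between −0.29 and −0.21.

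Other genes of mitosis, from a list of 114 that shares no gene with the members, had mostly negative estimates. Of 112 measured, 43 fell, 0 rose and 69 did not pass, against 6.56% of all genes called lower and 10.4% higher. Estimates lay below 0 for 95.5% of them, against 46.4% of all genes, and the median was −0.21. For 75 the homozygous values were all below the heterozygous ones, as for 17.2% of all genes. The list was written with earlier results of these data known. At an unadjusted p below 0.05 in either direction, 67 of the 112 were counted, against 6382 of all 18710 genes. Leaving out heterozygous replicate 1, 2 or 3 gave 16, 12 or 24 calls and leaving out homozygous replicate 1 or 3 gave 11 or 24, all lower, and 10 were called with the Y-linked covariate.

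The parts of this list stood at different levels. Of 25 other kinetochore genes 15 fell (median −0.31), with Cenpl from 315 ± 17.2 in heterozygous to 212 ± 25.4 in homozygous spleens (SD, n = 3), Cenpw at −0.50 and Cenpp at −0.49, all of the constitutive centromere-associated network. Of 19 regulators 12 fell (median −0.26). They included the histone kinase gene Haspin from 140.5 ± 6.23 in heterozygous to 97.2 ± 9.25 in homozygous spleens (SD, n = 3), Mastl at −0.45, which restrains the phosphatase that opposes Cdk1, and Lin54 at −0.42, the MuvB subunit that contacts the CHR. Spindle and cytokinesis genes fell in 11 of 28 cases (median −0.20), with the kinesin gene Kif14 at −0.48, the abscission gene Cep55 at −0.39 and Spag5 at −0.37. Single calls were made among 9 centriole genes (Sass6, −0.38) and 5 other condensin genes (Ncaph, −0.26), with medians of −0.22 and −0.24.

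The lists of the anaphase-promoting complex and of cohesin had medians nearer to 0. Their genes were also brighter, with median levels of 1318 and 1191.5, against 838 for the members. Among the members, brighter genes tended to have estimates nearer to 0 (Spearman correlation of level with log2 fold change 0.50). The relation ran the other way over all genes, where brighter genes tended to have lower estimates (−0.39). Of 15 genes of the anaphase-promoting complex and separase 1 fell, the separase gene Espl1, from 367 ± 9.55 in heterozygous to 289 ± 7.02 in homozygous spleens (SD, n = 3), and the median was −0.03. The subunit genes Cdc26, Anapc1, Anapc2 and Anapc5 had estimates above 0, the largest being 0.09 for Anapc2 (adjusted p = 0.391). Of 11 cohesin genes 2 fell, the acetyltransferase gene Esco2 (−0.46) and the cohesin regulator Cdca5 (−0.36), with a median of −0.09. The difference between these lists and the members was not tested.

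**Figure D5:**
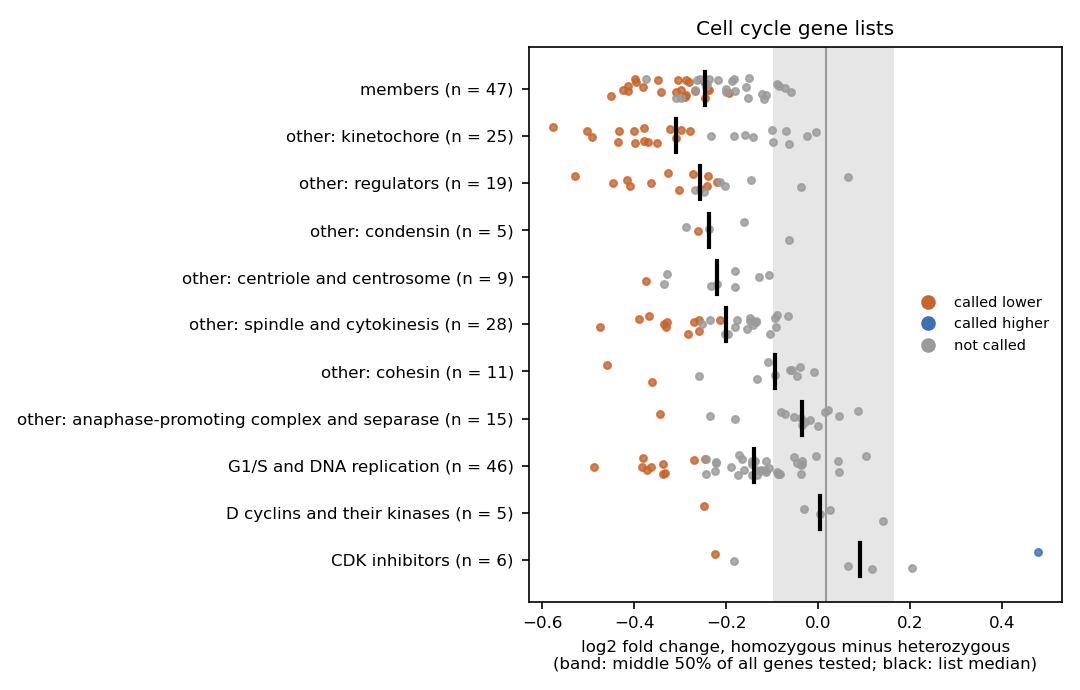
Log2 fold change of single genes (points; horizontal axis, homozygous minus heterozygous) in the members and in 10 other cell cycle lists, with list medians as black lines and the middle 50% of all 18710 genes as a grey band. Members have a median of −0.25 and other kinetochore genes of −0.31, while genes of the anaphase-promoting complex and separase centre at −0.03.

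Genes that act before mitosis also had more estimates below 0 than above. Of 46 measured genes of G1/S and DNA replication 10 fell and 0 rose (median −0.14), against 6.56% lower and 10.4% higher over all genes. An unadjusted p below 0.05 in either direction was found for 21 of them, against 6382 of all 18710 genes. The repressor gene E2f7, itself an E2F target, fell from 469.6 ± 13.0 in heterozygous to 335 ± 19.2 in homozygous spleens (SD, n = 3), the replication genes Gins1 by 0.38 and Cdc6 by 0.38 on the log2 scale. Among the D cyclins and their kinases only Ccnd1 fell, from 1204 ± 62.5 in heterozygous to 1013 ± 53.3 in homozygous spleens (SD, n = 3), and the median of these 5 genes was 0.00. Of 6 measured CDK inhibitors 1 rose and 1 fell. Cdkn1c, an imprinted inhibitor that is expressed as cells leave the cycle, rose from 6414 ± 544 in heterozygous to 8923 ± 553 in homozygous spleens (SD, n = 3) (log2 fold change 0.48 ± 0.08 (SE), adjusted p = 0.00751). Cdkn1b fell by 0.23 on the log2 scale (adjusted p = 0.0374), and Cdkn1a was not measured.

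Markers of several cell types differed between the same arrays. For comparison, 6.56% of all genes were called lower and 10.4% higher. Of 15 measured erythroid markers 6 fell and 0 rose (median −0.37). Their summed intensity was 13248 to 14405 on the heterozygous and 10385 to 11282 on the homozygous arrays, and most of it was the embryonic globin Hbb-y (9773 to 10426 and 8032 to 8627, log2 fold change −0.26). Among the other globin markers, Hbb-bh1 was at −1.06 and Hba-x at −0.60. Of 18 endothelium markers 14 fell and 0 rose (median −0.39), with sums of 11417 to 11734 against 8353 to 8995. Of 6 megakaryocyte markers 3 fell, with sums of 1051 to 1296 against 607 to 839. None of 13 macrophage markers passed (median 0.03, sums 3452 to 3572 against 3495 to 3876). In limma 3 of them had an unadjusted p below 0.05 in either direction, against 6382 of all 18710 genes. Of 6 spleen mesenchyme markers, Tlx1 among them, 5 fell (sums 8702 to 8903 against 6441 to 7184), and Barx1 had an estimate above 0 (0.27). Among 6 mesothelium markers 1 rose and 1 fell (sums 5507 to 5773 against 5116 to 5234). The one that fell was Wt1, which is also in the spleen mesenchyme list. It was the brightest of the mesothelium markers, with means of 2208 in heterozygous and 1758 in homozygous spleens.

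Nearly all markers of tissues next to the spleen had estimates above 0, and most did not pass. Estimates below 0 were 0 of 12 for epithelium, 0 of 10 for pancreas and 1 of 8 for enteric markers, against 46.4% of all genes. The share of all genes called higher was 10.4%. Homozygous values all lay above heterozygous ones for 9, 5 and 6 of them, and for 3941 of all 18710 genes. Over all genes, dimmer genes tended to have higher estimates (Spearman correlation of level with log2 fold change −0.39). Epithelium markers rose in 4 of 12 cases (sums 2923 to 3673 against 3823 to 4207), pancreas markers in 3 of 10 (1400.2 to 1958 against 2913 to 6244) and enteric neuron and glia markers in 4 of 8 (2917 to 2935 against 4417 to 4775), and none of these fell. Single bright genes carried much of these sums, Krt19 that of epithelium, Gap43 that of the enteric markers, and Gcg and Cpa1 that of the pancreas. Gcg read 98.0, 659 and 1032 on the heterozygous and 3751, 761 and 2728 on the homozygous arrays, with overlap, and did not pass (adjusted p = 0.0986). No marker was at 0, and the lowest mean was that of the pancreas gene Ptf1a, 32.5 in heterozygous spleens. The part of these cell types in the fall of the mitotic genes was not tested.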

How the data were processed

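Total RNA of 6 embryonic spleen samples was hybridised to Affymetrix mouse gene arrays. The deposited values are intensities per probe set and array. The submitters' processing notes name GCRMA, which models background from probe sequence, normalizes between arrays and summarises each probe set. Which version, annotation or genome build the authors used is not given in the sources used here. These intensities are linear, so log2(intensity + 1) was taken, which pulls fold changes of dim genes toward 0. Of 35512 probe sets, 21789 carried 1 gene symbol in the platform annotation, 1621 several and 12102 none. Those with 1 symbol and a log2 value of at least 4 on at least 3 of 6 arrays were kept (20424), and the brightest per gene was used (18710 genes). All members passed this filter except Ccnb1, which was not matched, and none had a further kept probe set.

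Homozygous minus heterozygous was tested 2-sided by lmFit and eBayes (limma 3.58.1, R 4.3.3) over 6 arrays without covariates, and called at a Benjamini-Hochberg adjusted p below 0.05. Fold changes carry the SE of the fit, and means the SD of 3 arrays. Arrays give no counts, and their number limits the precision. Members and gene lists were chosen with earlier results of these data known. Within each role, the 3 called members with the largest change and the member with the largest p are given in full. In other lists up to 3 called genes are named, and further genes were chosen after their values were seen. Alternatives changed the filter, the pseudocount (16), the probe set, the normalization, the variance model, the covariates and the samples. Promoter windows came from RefSeq, build GRCm38.p6, and all 47 Entrez identifiers of the measured members were found in its gene table.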

Additional observations from a re-analysis of the deposited data

How the results depend on the processing

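The median of the members kept its direction in all 19 alternatives, with values of −0.29 to −0.21, and moved by less than the spread between replicates. Their count of falls, 22, stayed within 1.5 times in 12 of 13 settings that kept all arrays, from 15 after quantile normalization or cyclic loess to 33 with a variance trend. With the mean level of Eif2s3y and Kdm5d as a covariate it was 2, that of other mitosis genes 10 (43 as reported), and those of all genes 470 lower and 1090 higher (1227 and 1951 as reported). That fit has fewer residual degrees of freedom and a covariate that overlaps with genotype. Without 1 array the members' falls ranged from 7 to 25, those of other mitosis genes from 11 to 46, and those of all genes from 499 to 1244 lower and from 699 to 2319 higher. No member reversed. Same-numbered arrays deviated together with correlations of −0.01, 0.04 and −0.11, and arrays of different numbers with −0.09 to 0.10. With 3 arrays per group, these values cannot tell whether the replicate numbers pair the samples. With a replicate block 18 members fell. A signal-over-background measure per probe was not used here, and 3 arrays per group limit the calls.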
